A study of Mus musculus with 10 samples.

Results

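The 10 genes Acr, Acrbp, Acrv1, Spaca1, Spaca3, Spaca4, Spaca7, Zpbp, Zpbp2 and Spam1 encode proteins of the acrosomal matrix and membranes. They were taken by name, are 10 of the 15507 genes listed for this experiment, and all passed the filter on low counts. Their transcripts were measured by poly(A) RNA-Seq in testicular germ cells of wild type (WT) and GRTH knock-in (KI) mice. Each group held 5 mice of 45 days, each mouse gave 1 library, and the cells came from collagenase-trypsin digestion as a mixture of spermatogonia, spermatocytes and spermatids. The KI mice were homozygous for a human GRTH gene with the R242H missense mutation, and WT mice carried the mouse gene. The labels give all 5 KI mice the same genotype, and whether mice 4 and 5 differ from mice 1 to 3 in the allele or in origin was not tested. GRTH, the product of Ddx25, is a testis RNA helicase that carries messenger RNAs to the cytoplasm of spermatids.

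The acrosome is a vesicle built from the Golgi apparatus that spreads over the spermatid nucleus. Its enzymes and membrane proteins are made from the round spermatid onwards and serve in the passage of sperm through the layers around the egg. The tail's outer dense fibers, fibrous sheath and mitochondrial sheath are assembled later, as the spermatid elongates. In bulk RNA of mixed germ cells, fewer cells of a type and less RNA per cell cannot be told apart.

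WT libraries held 13323024 to 16422347 reads on genes and KI libraries 12722086 to 15500582. Values are normalized counts, that is reads divided by the size factor of their library, and each of the 10 genes had between 216 and 10271 reads in every library. Ddx25, the targeted gene, had normalized counts of 8231 ± 2209 (SD, n = 5) in WT and 146, 194 and 161 in KI libraries 1 to 3. In KI libraries 4 and 5 it was at or under 3 reads, so means over all 5 KI libraries join mice with different levels of Ddx25 reads. Reads were placed on the mouse genome, whereas the KI mice carry a human GRTH gene. How far these counts reflect the human GRTH transcript in KI was not tested. Libraries 1 to 3 and libraries 4 and 5 of both genotypes also differ in mean read quality and are called quality groups here. Among germ cell markers, the sum over 5 elongating spermatid genes was 148614 to 291082 in WT and 18985 to 48924 in KI. By the rule for calls given below, limma called 5 of the 5 lower, against 8.22% of all genes. The sum over 5 round spermatid genes was 65579 to 85736 in WT and 28884 to 41506 in KI, with 3 of 5 called lower. Of 8 spermatocyte and 8 Sertoli cell markers, limma, DESeq2 and edgeR called 0 each (1 and 0 in limma at an unadjusted p under 0.05). At an adjusted p under 0.05 alone, 1 spermatocyte marker was lower in each of these tests (in limma 13.3% of all genes), and 0 Sertoli cell markers passed. With the library number as a block, 2 spermatocyte markers were lower and 1 higher at that adjusted p, against 2670 and 2256 of all 15389 genes. In limma 4 of 7 Leydig cell and 5 of 9 macrophage markers were called higher, against 6.13% of all genes. So were 2 of 3 tested peritubular myoid and 2 of 4 endothelial and blood markers. A further listed peritubular myoid marker did not pass the filter on low counts. Within the quality groups the Sertoli cell markers differed. In libraries 1 to 3 alone 4 of 8 were called higher (median log2 fold change 0.62), against 1108 of all 15395 genes. In libraries 4 and 5 alone 1 of 8 was called lower (median −0.20), against 1093 of all 15387 genes. There 1 of 8 spermatocyte markers was also called lower. Each listed marker had more than 3 reads in at least 1 library. The part of these cell types in the differences below was not tested.

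Stretches of promoter are shown for a few of the genes, because Spam1 and Spaca7 had the lowest log2 fold changes of the 10 and carried the same run of letters. Each is the 120 bases before the gene's start in RefSeq, build GRCm38.p6, 5′ to 3′ on the gene's strand. For a gene with several starts, such as Spaca1, the first listed was used. The stretch of Spaca1 thus ends just inside the gene's coordinates given below. The capitals mark TGATGTCA in the upper 4, where Hyal5 is the neighbor and paralog of Spam1 and Akap4 is a tail gene, and TGACG in the lower 2.
Spam1, chr6:24791068-24791187, plus strand: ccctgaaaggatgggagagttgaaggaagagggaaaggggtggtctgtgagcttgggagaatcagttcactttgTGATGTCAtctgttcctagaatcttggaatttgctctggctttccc
Hyal5, chr6:24857877-24857996, plus strand: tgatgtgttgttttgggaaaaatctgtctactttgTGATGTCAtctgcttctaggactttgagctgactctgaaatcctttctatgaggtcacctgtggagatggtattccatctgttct
Spaca7, chr8:12572916-12573035, plus strand: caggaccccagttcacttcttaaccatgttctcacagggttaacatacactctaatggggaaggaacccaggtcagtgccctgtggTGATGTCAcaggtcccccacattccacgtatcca
Akap4, chrX:7067395-7067514, plus strand: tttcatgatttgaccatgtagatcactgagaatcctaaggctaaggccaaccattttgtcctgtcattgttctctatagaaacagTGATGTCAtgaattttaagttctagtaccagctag
Spaca1, chr4:34050066-34050185, minus strand: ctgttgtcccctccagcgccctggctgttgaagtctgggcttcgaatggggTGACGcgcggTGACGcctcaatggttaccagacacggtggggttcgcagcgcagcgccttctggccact
Acrbp, chr6:125049807-125049926, plus strand: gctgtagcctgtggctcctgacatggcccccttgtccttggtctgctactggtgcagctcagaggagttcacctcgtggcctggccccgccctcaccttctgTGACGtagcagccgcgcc

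These motifs were chosen after the changes of the genes and the sequences were seen. Both strands were searched from 250 bases before to 50 bases after the start, and 9 of the 10 genes had a promoter entry; Acr had none. TGACGTCA, the full cAMP response element, was in none of the 9 and in 2.03% of 27025 genes. TGATGTCA was in 2 of the 9, Spam1 and Spaca7, with its first letter at −46 and −34 from the start, and in 4.18% of all genes. Of 16 tail genes with an entry 5 held it (Akap3, Akap4, Gapdhs, Smcp and Txndc2), as did Hyal5 and Lyzl6 among 14 other genes of acrosomal content. The shorter TGACG, which every TGACGTCA contains and TGATGTCA does not, was in Acrbp, Spaca1, Spaca3 and Zpbp2 and in 23.0% of all genes. TATAAA, which overlaps none of these, was in Spaca7 alone of the 9 and in 15.7% of all genes. A match describes the letters of the window only.

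Spam1 was lower in KI at 1.5-fold or more, and Spaca1 and Zpbp were lower by less. A gene was called when its adjusted p was under 0.05 (limma on log2(normalized count + 1), adjusted over 15389 genes) and its fold change was at least 1.5. By that rule 1 of the 10 genes was called lower and 0 higher, where 8.22% of all genes tested were called lower and 6.13% higher. At the adjusted p alone 3 of 10 were lower, against 13.3% of all genes, and 0 higher, against 9.65%. An unadjusted p under 0.05 was reached by 6 with KI lower and by 0 with KI higher, against 2829 and 2493 of all 15389 genes. With the library number as a block, 2 of 10 were called lower (8.73% of all genes) and 7 of 10 passed the adjusted p alone (17.4%). The labels give no pairing of mice, so results with this block rest on pairs taken from these same data. DESeq2 and edgeR on the recovered reads each called 1 lower and 0 higher. Of all 15389 genes DESeq2 called 1291 lower and 1018 higher, and edgeR 1293 and 950. The median log2 fold change of the 10 was −0.36, against 0.03 for all genes tested. All 10 log2 fold changes were below 0, but those of Acr and Spaca4 were above 0 when libraries were scaled to their totals, a scaling that moved the median of all genes to 0.25. With that scaling, or with scaling on spermatocyte markers, Spam1 alone of the 10 passed the adjusted p. Of all 15389 genes, 1219 and 804 were lower at that adjusted p under these scalings. In 4 of the 10 no KI library reached a WT library (10.9% of all genes), in 0 of 10 was the reverse seen (6.8%), and in 7 of the 10 the KI library was below the WT library of the same number in all 5 pairs (19.7% of all genes).

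**Figure D1:**
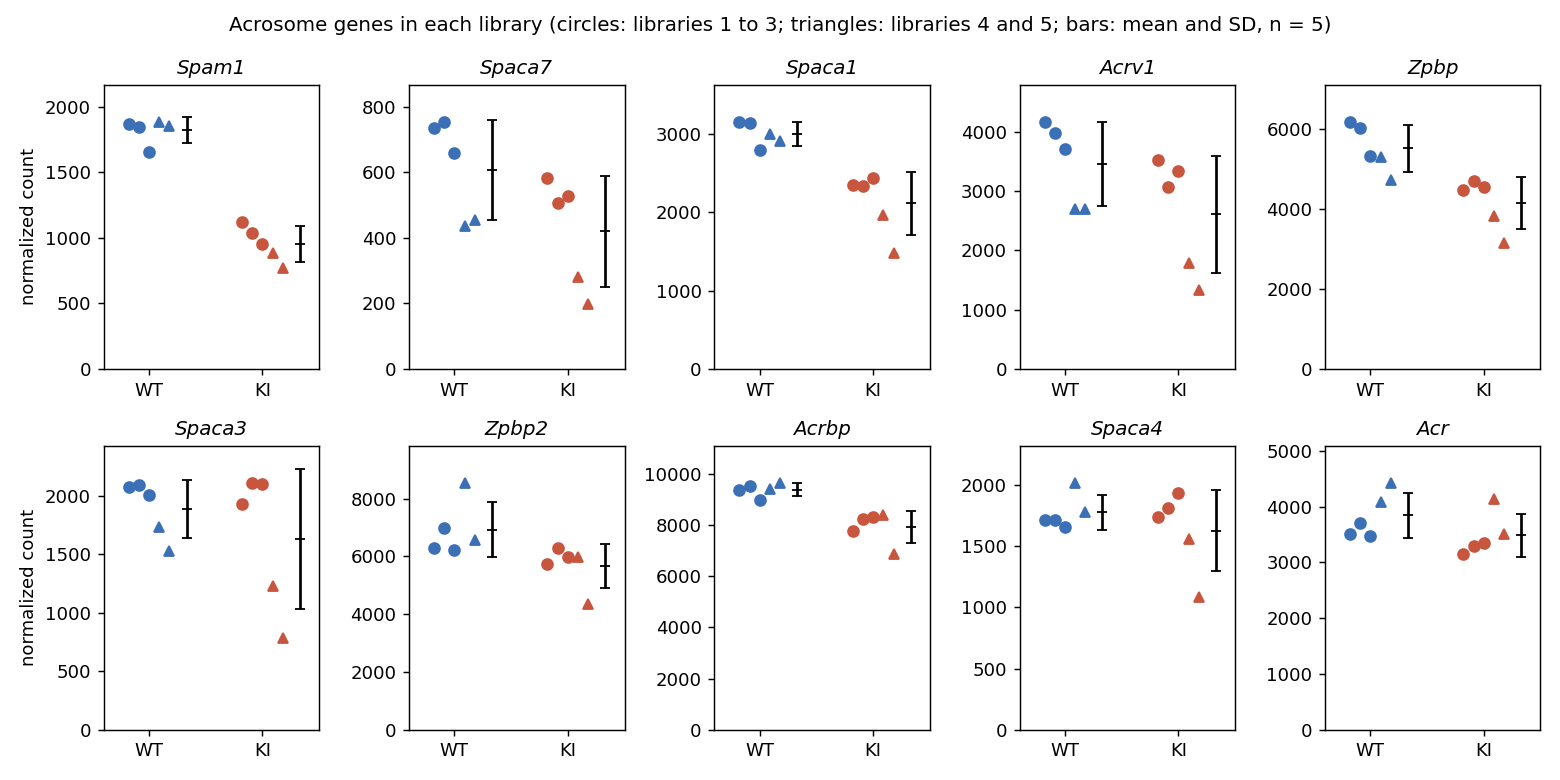
Normalized counts of the 10 acrosome genes in each library (vertical axis from 0), WT in blue and KI in red, circles for libraries 1 to 3, triangles for libraries 4 and 5, bars for mean and SD (n = 5 per genotype). Spam1 lies between 1653 and 1886 in WT and between 773 and 1119 in KI, whereas the groups of Acr and Spaca4 overlap, and KI library 5 is the lowest of all libraries in 9 of the 10 genes.

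Among the enzymes of the acrosome, Spam1 changed the most. It encodes PH-20, the hyaluronidase of the sperm surface and inner acrosomal membrane (chr6:24791188-24801048, protein-coding, plus strand). Normalized counts of Spam1 were 1873, 1849, 1653, 1886 and 1857 in WT libraries 1 to 5 and 1119, 1039, 952, 883 and 773 in KI libraries 1 to 5. The groups did not overlap and the KI mean was 52.3% of the WT mean. On the log2 scale Spam1 differed by −0.95 (SE 0.10, limma adjusted p = 9.01e-06). Acr encodes acrosin, the serine protease of the acrosomal matrix (chr15:89568326-89574585). Its normalized counts were 3513, 3710.15, 3469, 4083 and 4428 in WT and 3158, 3297, 3341, 4132 and 3503 in KI. KI library 4 stood above 4 of the WT libraries, and the log2 fold change was −0.14 (95% interval −0.35 to 0.07, limma adjusted p = 0.355). The change of Acr, whose sign turned with scaling to totals, was not separable from the spread between libraries.

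Acrbp, the partner that binds proacrosin in the matrix (chr6:125049927-125063265), had normalized counts of 9379.98, 9539.6, 8980.04, 9440.4 and 9667 in WT. In KI they were 7796, 8241, 8312, 8384 and 6887. Every KI library was below every WT library by a narrow margin, and the log2 fold change of Acrbp was −0.25 (SE 0.09, limma adjusted p = 0.0514). With the library number as a block its adjusted p was 0.0322. Spaca3 encodes a lysozyme-like protein of the acrosome (chr11:80858363-80867814). It was at 2071, 2088, 2003, 1731 and 1523 normalized counts in WT and at 1929, 2110.1, 2096, 1229.9 and 780.2 in KI. KI libraries 1 to 3 of Spaca3 lay at the level of WT libraries 1 to 3, and KI libraries 4 and 5 below every WT library. The log2 fold change was −0.30 (SE 0.23, limma adjusted p = 0.393).

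Acrv1 and Spaca7, both proteins of the vesicle's contents, had the widest spread within a genotype. Acrv1, known as SP-10 (chr9:36693220-36698843), was at 4161, 3979.5, 3707, 2694 and 2698 in WT and at 3518, 3063, 3339.9, 1792 and 1329 in KI. Libraries 4 and 5 were low in both genotypes, so that the groups overlapped although KI was below WT in each of the 5 pairs. On the log2 scale Acrv1 differed by −0.48 (SE 0.24, limma adjusted p = 0.174), and its adjusted p was 0.00539 with the block. On chromosome 9 Acrv1 is 1134749 bases away from Ddx25. Spaca7, a protein released in the acrosome reaction (chr8:12573036-12600739), was at 734, 754, 658, 435 and 456 in WT and at 584, 507, 529, 282 and 199 in KI. The same division into libraries 1 to 3 and libraries 4 and 5 was seen. Its log2 fold change was −0.61 (SE 0.27, limma adjusted p = 0.118), and with the block the adjusted p was 0.00165, which made Spaca7 the other gene called lower in that fit.

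Of the membrane proteins, Spaca1 was lower and Spaca4 was not separable from the spread. Spaca1 encodes a protein of the acrosomal membrane that is needed for the shape of the acrosome (chr4:34024872-34050067, minus strand). Normalized counts of Spaca1 were 3151, 3134, 2798, 2996 and 2911 in WT and 2341, 2339.6, 2438, 1965 and 1473 in KI. The groups did not overlap, and the log2 fold change was −0.53 (SE 0.12, limma adjusted p = 0.00604), just under 1.5-fold. Spaca4, a lipid-anchored protein of the acrosomal membrane (chr7:45725107-45725816, a single exon on the minus strand), was at 1712, 1718, 1658, 2020.1 and 1785 in WT. In KI it was at 1738, 1812, 1935, 1559.8 and 1087. KI libraries 1 to 3 were above the WT libraries of the same numbers and KI libraries 4 and 5 below all WT libraries. The log2 fold change of Spaca4 was −0.15 (95% interval −0.44 to 0.13, limma adjusted p = 0.464), above 0 with scaling to totals.

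Zpbp and Zpbp2 are paralogs whose products bind the zona pellucida and sit in the acrosomal matrix, and both lie on chromosome 11. Zpbp (chr11:11280040-11462419) was at 6163, 6024, 5316, 5294 and 4714 normalized counts in WT and at 4475, 4685, 4544, 3826 and 3154 in KI. The highest KI library was just below the lowest WT library. Zpbp differed by −0.42 on the log2 scale (SE 0.12, limma adjusted p = 0.0186), and the adjusted p was above 0.05 without WT library 1 (0.0544) or WT library 2 (0.0511). Zpbp2 (chr11:98551097-98558665) was at 6279, 6968, 6229.9, 8552 and 6583 in WT and at 5732, 6289.6, 5993, 5997 and 4351 in KI. The groups overlapped by a small margin, and the log2 fold change was −0.29 (SE 0.12, limma adjusted p = 0.097). With the block its adjusted p was 0.0321. Exons of Acrbp, Spaca7 and Zpbp overlap those of other annotated genes, and no source states that strand was used in counting, so reads of those genes may be shared.

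Spam1 was lower in KI relative to each of the other 9 genes. In all 5 same-numbered pairs its ratio to each of the 9 was lower in KI than in WT. A paired exact permutation test gave p = 0.0625 for each, the smallest that 5 pairs allow, so that a paired test cannot reach 0.05. Without regard to the numbers, the log2 ratio of Spam1 to each of the 9 was compared between genotypes with the exact permutation test, two-sided, over all arrangements of 5 against 5 libraries, with p-values adjusted over the 9. Both comparisons were chosen after the values were seen, and their p-values are given as a description. The ratio to Acr was 0.478 ± 0.042 in WT and 0.278 ± 0.061 in KI (SD, n = 5 each), with no overlap. For Acr, Acrbp, Spaca1, Spaca4, Zpbp and Zpbp2 the difference in the log2 ratio was −0.81, −0.70, −0.42, −0.79, −0.53 and −0.66, each with an adjusted p of 0.0119. Before adjustment each of these had p = 0.00794, the smallest that the exact permutation test can give over 252 arrangements. Against Spaca3 the difference in the log2 ratio was −0.65 (exact permutation test, adjusted p = 0.0408). Against Acrv1 (−0.47, exact permutation test, adjusted p = 0.0982) and Spaca7 (−0.34, adjusted p = 0.246, exact permutation test) it did not pass in this unpaired test, where the ratios of libraries 4 and 5 to these genes stood above those of libraries 1 to 3 in both genotypes.

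Levels per gene length were compared as normalized counts per kilobase of exon, which depend on the annotated exons. In WT the order was Zpbp2 (4113 ± 569, SD, n = 5), Acrbp (2869 ± 79.2), Spaca4 (2516 ± 201.1), Acr (2451 ± 261), Spaca3 (1980.2 ± 260), Spaca1 (1879 ± 93.6), Zpbp (1295 ± 139.7), Acrv1 (945 ± 193), Spam1 (823 ± 43.4) and Spaca7 (620.5 ± 156). Neighbors in this order overlapped between libraries except Zpbp2 with Acrbp, Acr with Spaca3 and Spaca1 with Zpbp. The order of the means in KI was the same, but there all neighbors except Zpbp2 with Acrbp overlapped between libraries. Acrbp was above Spaca4, Acr above Spaca3 and Spam1 above Spaca7 in 2 of the 5 KI libraries each. In KI the means of Spam1 (429.9 ± 60.6) and Spaca7 (429.1 ± 173) were nearly the same per kilobase.

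Within the quality groups, the difference between KI and WT was further below 0 in libraries 4 and 5 than in libraries 1 to 3 for all 10 genes, in the deposited scaling. It was lower in libraries 4 and 5 for 12 of 16 further content genes, 1 of 18 assembly genes and 5 of 20 tail genes. For all genes this count was not made. Most of the 10 genes also deviate together between libraries, as given below, so they are not separate observations. The median log2 fold change of the 10 was −0.23 in libraries 1 to 3 (3 WT, 3 KI) and −0.64 in libraries 4 and 5 (2 WT, 2 KI). For all genes tested the median was 0.02 in both, and for 8 Sertoli cell markers, as given above, it was 0.62 and −0.20. Without KI library 5 the log2 fold change over all other libraries was −0.05 for Spaca3, −0.02 for Spaca4, −0.26 for Acrv1 and −0.37 for Spaca7, and without WT library 5 it was −0.09 for Acr. Spam1 was lower in both groups, with log2 fold changes of −0.79 (limma adjusted p = 1.96e-06) and −1.18 (limma adjusted p = 0.000206). Spaca1 had −0.35 and −0.80, Zpbp −0.35 and −0.52, Acrv1 −0.26 and −0.80, and Spaca7 −0.41 and −0.91, and these 4 also passed in each group. Spaca3 was at −0.01 and −0.73, passing in libraries 4 and 5 alone (limma adjusted p = 0.0302). Spaca4 was at 0.11, with all 3 KI libraries above the 3 WT libraries, and at −0.54, without passing in either. Acr, Acrbp and Zpbp2 passed in neither group, with log2 fold changes of −0.13 and −0.16, −0.20 and −0.33, and −0.11 and −0.55. In all, 5 of 10 passed in libraries 1 to 3 (18.0% of all genes) and 6 of 10 in libraries 4 and 5 (7.66%). KI libraries lay below WT libraries without overlap for 7 of 10 genes in libraries 1 to 3 (23.5% of all genes) and for 9 of 10 in libraries 4 and 5 (26.8%).

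The interaction of genotype with quality group did not pass for any of the 10 genes in limma (adjusted p from 0.103 to 0.934), where 0.247% of all genes passed. At an unadjusted p under 0.05 there were 7 of 10, against 16.1% of all genes. In WT alone, libraries 4 and 5 were also lower than libraries 1 to 3 for Acrv1 (log2 difference −0.55), Spaca7 (−0.68) and Spaca3 (−0.34), and higher for Acr (0.26). The corresponding log2 differences in KI were −1.10, −1.18, −1.06 and 0.22. For the other 6 genes the log2 difference in WT was −0.03 (Spaca1), 0.04 (Acrbp), 0.06 (Spam1), −0.22 (Zpbp), 0.21 (Zpbp2) and 0.16 (Spaca4). In KI it was −0.48, −0.09, −0.32, −0.39, −0.23 and −0.49 in the same order. In WT the 10 genes thus did not share a direction between the quality groups, and in KI 9 of 10 were lower in libraries 4 and 5. Read quality, the reads placed on mouse Ddx25 in KI and the Sertoli cell markers also differed between the quality groups, and their part was not tested.

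**Figure D2:**
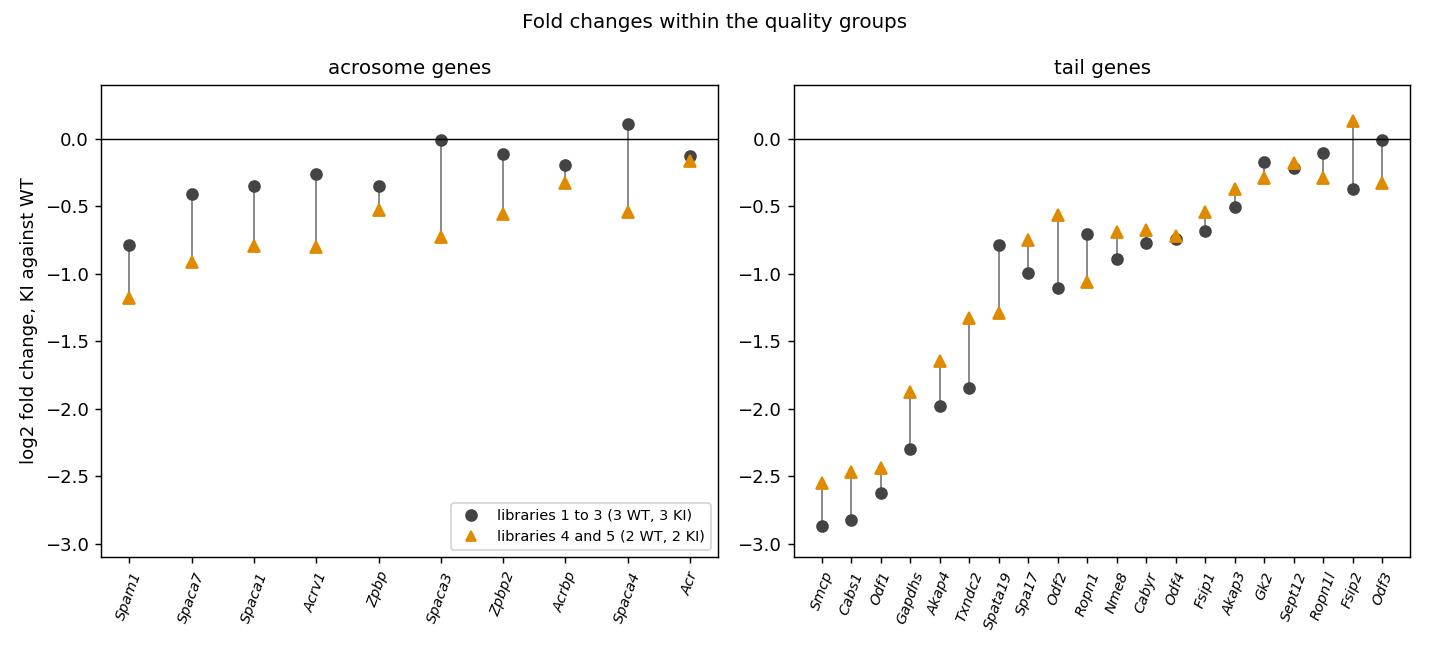
Log2 fold changes (KI against WT, vertical axis) computed within libraries 1 to 3 (circles, 3 WT and 3 KI) and within libraries 4 and 5 (triangles, 2 WT and 2 KI), for the 10 acrosome genes on the left and the 20 tail genes on the right. For all 10 acrosome genes the triangle is the lower of the pair, and for 5 of the 20 tail genes it is.

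Across the 10 libraries the genes deviated together from the mean of their genotype, apart from Acr. Over the 36 pairs without Acr, the correlation of these deviations had a median r of 0.758 and ran from 0.297 to 0.996, the highest being Acrv1 with Spaca7. Over the 9 pairs with Acr it ran from −0.69 to 0.29. With the means of the quality groups also removed, the pairs with Acr ran from 0.337 to 0.935. These correlations rest on 10 libraries that share their depth, scaling and quality group, and are given as a description.

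The acrosome genes were set against genes of the tail, which is built later. Of 20 structural genes of the tail, limma called 14 lower and 0 higher, as did DESeq2 and edgeR. Of all genes limma called 8.22% lower and 6.13% higher. An unadjusted p under 0.05 was reached by 16 with KI lower and by 0 with KI higher, against 2829 and 2493 of all 15389 genes. The median log2 fold change of the 20 was −0.83, against −0.36 for the acrosome genes and 0.03 for all genes. All 20 were below 0, and 5 of them were above 0 with scaling to library totals. The difference between the lists was not tested as a whole, and each gene's own values follow.

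The 6 tail genes with the greatest fall were Smcp (−2.74, SE 0.15), a protein of the mitochondrial sheath, Cabs1 (−2.68, SE 0.22), a calcium-binding protein of the flagellum, Odf1 (−2.55, SE 0.14), of the outer dense fibers, Gapdhs (−2.13, SE 0.17), the glycolytic enzyme of the fibrous sheath, Akap4 (−1.85, SE 0.15), the main protein of that sheath, and Txndc2 (−1.64, SE 0.21), a thioredoxin. Smcp had normalized counts of 33377, 35632, 36221, 22439 and 25324 in WT and of 4883, 4716, 4822, 4935 and 3347 in KI. Akap4 had 41855, 47739.5, 46544, 31360.3 and 29270.3 in WT and 11383, 12037, 11012, 10569 and 8848 in KI. In both genes every KI library was below every WT library, and the ratio of Akap4 to Acr was 10.5 ± 3.13 in WT and 3.13 ± 0.551 in KI (SD, n = 5 each). The ratio of Smcp to Acr was 8.15 ± 2.35 in WT and 1.31 ± 0.238 in KI. Acr had the smallest fall of the acrosome genes, and Akap4 and Smcp are among the 6 tail genes with the greatest. These ratios thus compare extremes of both lists and not the lists as a whole. Not every tail gene was called. Akap3, of the fibrous sheath, was at −0.45 (limma adjusted p = 0.00318), and Gk2, Sept12, Ropn1l, Fsip2 and Odf3, named here after their values were seen, were between −0.22 and −0.13 and did not pass. In this order of tail genes, Spam1 with −0.95 would stand between Spata19 (−0.99, SE 0.28), a mitochondrial protein, and Spa17 (−0.90, SE 0.14), of the fibrous sheath, which are also named after their values were seen.

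**Figure D3:**
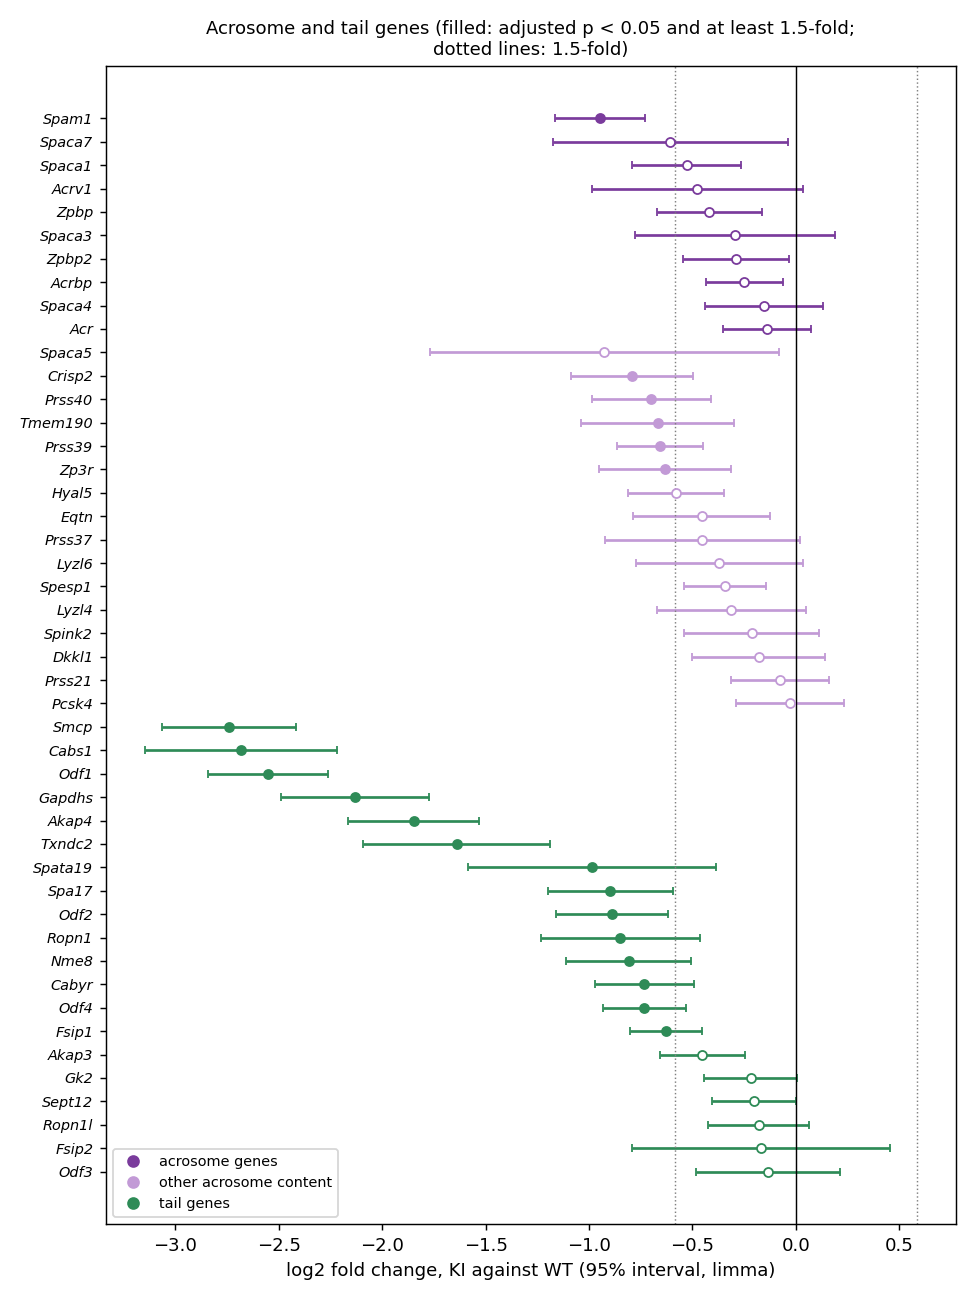
Log2 fold changes (KI against WT, horizontal axis) with 95% intervals from limma for the 10 acrosome genes, 16 further genes of acrosomal content and 20 tail genes. Filled points are called, dotted lines mark 1.5-fold, and 1 of 10, 5 of 16 and 14 of 20 points are filled. With scaling to library totals 2, 4 and 5 of these genes, none of them filled, lie above 0.

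Further genes of acrosomal content were set beside the 10. Of 16, 5 were called lower and 0 higher by limma, against 8.22% and 6.13% of all genes (unadjusted 9 and 0, DESeq2 and edgeR 5 and 0 each). The median log2 fold change of the 16 was −0.45. The 5 were Crisp2 (−0.79, SE 0.14), a secretory cysteine-rich protein that is also found in the tail, the serine proteases Prss40 (−0.70, SE 0.14) and Prss39 (−0.66, SE 0.10), Tmem190 (−0.67, SE 0.17), a membrane protein of the inner acrosome, and Zp3r (−0.63, SE 0.15), known as sp56. The count was 2 of 16 without KI library 5, where 1138 of all 15423 genes were called lower. It was 1 with scaling on spermatocyte markers and 0 with scaling to library totals, where 804 and 789 of all 15389 genes were called lower. Hyal5, the hyaluronidase gene 56.9 kb from Spam1, had normalized counts of 2047, 2185, 1702, 1686 and 1836 in WT and of 1434, 1304.5, 1346, 1247 and 1007 in KI. The groups of Hyal5 did not overlap, and its log2 fold change was −0.58 (SE 0.11, limma adjusted p = 0.00129), just under the fold threshold. The ratio of Spam1 to Hyal5 was 0.972 ± 0.103 in WT and 0.752 ± 0.042 in KI (SD, n = 5 each), with no overlap, and since these paralogs are alike in sequence, reads could be split between them. The paralogs of Spaca3 were at −0.31 (Lyzl4, SE 0.17), −0.37 (Lyzl6, SE 0.19) and −0.93 (Spaca5, SE 0.39), and none passed (limma adjusted p = 0.207, 0.181 and 0.108), while with the block all did (0.0361, 0.0302 and 0.0014).

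Genes that build the acrosome were called at a share near that of all genes. Of 18 assembly genes, many but not all act in vesicle traffic from the Golgi apparatus or in anchoring the acrosome to the nucleus. Of the 18, 2 were called lower and 0 higher by limma (unadjusted 5 and 1, DESeq2 and edgeR 2 and 0 each), against 8.22% and 6.13% of all genes. At the adjusted p alone 3 of 18 were lower (13.3% of all genes), and 8 of 18 in libraries 1 to 3 alone (18.0%). The 2 were Fam71f1 (−1.04, SE 0.18, limma adjusted p = 0.000749) and Ccdc136 (−0.72, SE 0.13, limma adjusted p = 0.00107), both needed for a normal acrosome. Ccdc136 was at −0.999 in libraries 1 to 3 and at −0.30 in libraries 4 and 5, where it did not pass (limma adjusted p = 0.287), and its interaction with quality group had an adjusted p of 0.0773 in limma. The median of the 18 was −0.06. Dpy19l2 (−0.33, limma adjusted p = 0.0173), which anchors the acrosome at the nuclear membrane, was lower by less than 1.5-fold, and Golga2 (0.26, limma adjusted p = 0.0241), a Golgi matrix protein, was higher by less. Both are named after their values were seen. Of 8 genes of acrosomal exocytosis 0 were called by limma, DESeq2 or edgeR (unadjusted 2 lower and 2 higher). With scaling to library totals 2 were called higher, against 2145 of all 15389 genes. At the adjusted p alone 1 of the 8 was lower and 2 were higher in limma, against 13.3% and 9.65% of all genes. The median log2 fold change within libraries 1 to 3 and within libraries 4 and 5 was −0.23 and −0.64 for the 10 acrosome genes, −0.38 and −0.59 for the further content genes, −0.21 and 0.12 for the assembly genes, and −0.78 and −0.70 for the tail genes.

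**Figure D4:**
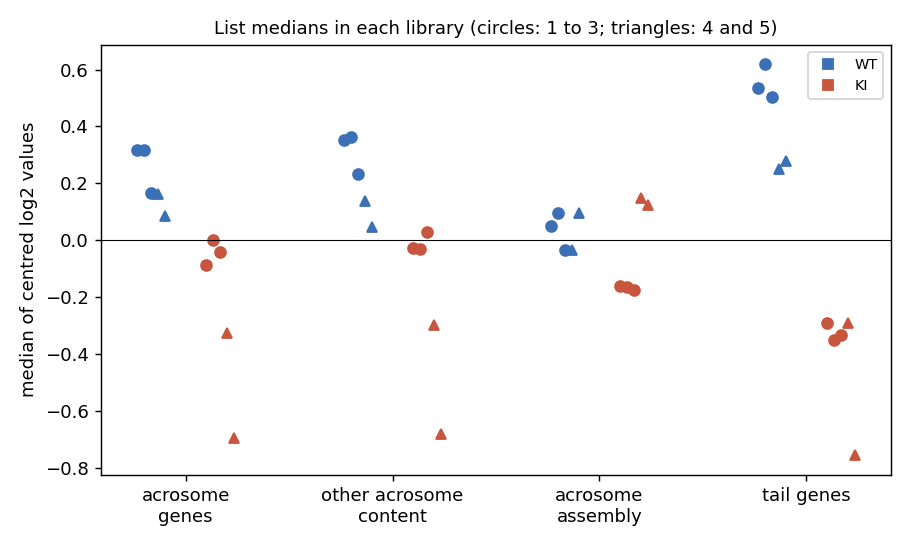
Median over each list of log2 values centred per gene (vertical axis) in each library, WT in blue and KI in red, circles for libraries 1 to 3 and triangles for libraries 4 and 5. For the 10 acrosome genes WT libraries lie between 0.08 and 0.32 and KI libraries between −0.69 and 0.00, with KI libraries 4 and 5 lowest, and the assembly genes of the same 2 KI libraries lie at 0.12 and 0.15.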

How the data were processed

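Poly(A) RNA of testicular germ cells of 5 WT and 5 KI mice was measured, 1 library per mouse, and libraries were assigned by their labels. The authors trimmed the reads, placed them on mm10 by STAR, counted per RefSeq gene in Partek Flow, divided them by the DESeq2 size factor of the library and deposited this signal as normalized counts. Division by the value of 1 read returned whole reads for 100% of values under 5000 reads (tolerance 0.1 reads), and those reads entered DESeq2 (version 1.42.0) and edgeR (version 4.0.16). The main test was limma (version 3.58.1, R 4.3.3) with a variance trend on log2(normalized count + 1) for 15389 genes kept by filterByExpr, all 10 libraries, no covariate and Benjamini-Hochberg adjustment. Fold changes are differences of mean log2 values, and the added 1 shrinks those of low genes. The steps were tested on simulated counts, which held no quality groups, unlike these libraries.

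The members and lists were chosen with earlier results of these data known. Named were the 10 members, Ddx25, up to 6 called genes per other list in each direction, and the paralogs Hyal5, Lyzl4, Lyzl6 and Spaca5. Alternatives were other tests, scalings (library totals, spermatocyte markers), filters, pseudocounts, a replicate block, a quality group term, each quality group alone and each library left out. The paired test of ratios of Spam1 was added after seeing the data. After removal of genotype means, same-numbered libraries correlated with r of 0.306, 0.105, 0.280, 0.216 and 0.462. Libraries of different numbers had a mean r of 0.134 within a quality group and −0.201 across quality groups. The second pair thus lay below other libraries of its quality group. The numbers were taken as pairs from these data and not from the labels, which give no pairing. Whether mice of the same number belong together was not tested otherwise. Replicates differed beyond sampling noise (chi-square per degree of freedom 2.67 to 46.4). Positions are those of the deposited table (mm10), exon lengths those of GENCODE on that build. Syt6 and Syt8 of the exocytosis list and Nanos3 of the spermatogonial list were not analysed here, and the other 7 spermatogonial markers gave 0 calls. Depth, given with the results, limits the precision of each value.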

Additional observations from a re-analysis of the deposited data

Results flagged for a closer look

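Chance sets 1 library apart in about 1 of 20 groups of 5, and 4 stood apart among 56 groups checked here, counting each gene in each genotype. One was KI library 5 for Zpbp2, at a normalized count of 4351 where the other KI libraries had 5732 to 6289.6. WT library 3 stood apart for Spam1, at 1653 against 1849 to 1886. KI library 5 also stood apart for Smcp, at 3347 against 4716 to 4935, and for Gapdhs, at 3587 against 4775 to 5218. The effect of genotype on reads placed on mouse Ddx25 differed between the quality groups by −6.25 on the log2 scale (limma interaction, adjusted p = 1.12e-10). These reads were lower in all 5 KI libraries and lowest in KI libraries 4 and 5. There at most 3 reads were left and the value depends on the pseudocount.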

How the results depend on the processing

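Of 210 comparisons of the 10 acrosome genes with an alternative, 186 kept direction and side of the threshold, 6 lost and 15 gained it, and 3 turned, namely Acr (0.0897) and Spaca4 (0.0761) with scaling to library totals and Spaca4 (0.11) in libraries 1 to 3 alone. For the 17 other named genes these were 338, 10, 9 and 0 of 357. The count of acrosome genes called lower, 1, became 5 in libraries 4 and 5 alone, where 1093 of all 15387 genes were called lower. It became 2 with the quality group term (1361 of all 15389 genes) or the replicate block (8.73% of all genes). With a library left out it ran from 1 to 2 (2 without KI library 3). At the adjusted p alone, 3 became 5 in libraries 1 to 3 alone, 6 in libraries 4 and 5 alone or with the quality group term, 7 with the replicate block, and 1 with scaling on spermatocyte markers or to library totals. Their median log2 fold change, −0.36, was −0.23 in libraries 1 to 3 alone, −0.64 in libraries 4 and 5 alone and −0.13 with library totals, and ran from −0.44 to −0.23 with a library left out (−0.23 without KI library 5). With library totals 9 tail genes in place of 14 were called lower, their median was −0.60, and all calls split into 789 lower and 2145 higher in place of 1265 and 944. The replicate block changed no other call among the named genes than those given with the results. Spam1 was called under each alternative run. The cause of these shifts was not tested.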
